A study of Rattus norvegicus with 12 samples.

Results

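The nuclear-encoded subunits of the respiratory chain were followed in RNA sequencing of rat brain after stroke. Members were the rows of the deposited count table named as subunits of complexes I to V (Nduf, Sdh, Uqcr, Cox4 to Cox8 and Atp5 symbols, without those named as complex I assembly factors) that held at least 10 counts in at least 3 libraries. Of 37209 gene symbols, 95 had such a name and 81 met the minimum, and all 81 were among the 17008 genes tested. By symbol, complex I gave 36 members, complex II 4, complex III 9, complex IV 14 and complex V 18. Ndufa4, now assigned to complex IV, and its paralogue Ndufa4l2 are counted under complex I by name in all values by complex. RefSeq types 79 of the 81 as protein coding and 2, Atp5h-ps1 and Uqcrb-ps1, as pseudogenes, and 18 of the symbols are older names of genes that RefSeq now calls otherwise (Atp5b is Atp5f1b, Atp5g3 is Atp5mc3, Atp5j2 is Atp5mf, Atp5f1 is Atp5pb). Atp5s and Atp5sl, counted here under complex V by name, are now Dmac2l and Dmac2, and Dmac2 is named as an assembly factor of the complex I membrane arm.

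The samples were brains of Sprague Dawley rats at postnatal day 21, in 4 groups of 3 libraries: middle cerebral artery occlusion (MCAO, which blocks the largest artery feeding the forebrain), pontine infarction (PI, a stroke in the brainstem), and sham-operated controls coded LN and PN. No group carries a transgene or a drug in the labels. MCAO was set against sham LN and PI against sham PN by the first letter of their codes. The dissected region and the time after stroke are not stated, and p-values here measure the spread between these samples. The column code of 1 MCAO library carries a number that no sample title has, and it is called the unnumbered MCAO library.

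The respiratory chain passes electrons from NADH (complex I) and succinate (complex II) through complex III to oxygen at complex IV, and the proton gradient that complexes I, III and IV build drives the ATP synthase, complex V. Neurons depend on it for the ion pumping behind their signals, and lack of oxygen in stroke stops it at complex IV. All subunits of complex II and most of the others are encoded in the nucleus, while mitochondrial DNA encodes a small core of complexes I, III, IV and V. The factors NRF1, NRF2 (an ETS-family factor also called GABP) and YY1 are known to bind promoters of many of the nuclear genes.

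RefSeq promoters (250 bases before to 50 after the start, assembly GRCr8) were listed for 68 members. Each motif was searched on both strands, and no 2 of the 3 overlap in the promoters printed here. The NRF1 motif, GCGCA followed by any base and then GCGC, was in 13 of 68 promoters (19.1%), against 6.09% of 19005 promoters of protein-coding genes. The ETS motif CCGGAAG was in 19 (27.9%, against 11.2%), the YY1 motif AANATGGCG in 16 (23.5%, against 4%) and the sequence TATAAA in 5 (7.35%, against 13.1%). A match is a stretch of letters, not a measured binding site. The 4 promoters printed here belong to Ndufs3, which passed the test after MCAO, and to Atp5g3, Ndufb7 and Atp5j2, which differed between the sham groups and show 1 motif each, in capitals. Of other members that differed and have a listed promoter, Sdhc, Ndufv2, Cox5a, Ndufa3 and Ndufb5 show none of the 3 factor motifs. Uqcrh, Ndufc1, Ndufa2, Ndufa11, Ndufs7, Uqcrc1 and Cox5b show at least 1. Whether motifs go with the sham difference was not tested. The Ndufs3 promoter lies at chr3:97339605-97339904 (minus strand) and holds none of the 3 factor motifs in this window. The Atp5g3 promoter, at chr3:79220615-79220914 (minus strand), has an NRF1 motif that begins at position 7, counted from the start base as 0. The Ndufb7 promoter, at chr19:41477242-41477541 (minus strand), has an ETS motif at position -16, and the Atp5j2 promoter, at chr12:14535185-14535484 (plus strand), a YY1 motif at position 36.
Ndufs3: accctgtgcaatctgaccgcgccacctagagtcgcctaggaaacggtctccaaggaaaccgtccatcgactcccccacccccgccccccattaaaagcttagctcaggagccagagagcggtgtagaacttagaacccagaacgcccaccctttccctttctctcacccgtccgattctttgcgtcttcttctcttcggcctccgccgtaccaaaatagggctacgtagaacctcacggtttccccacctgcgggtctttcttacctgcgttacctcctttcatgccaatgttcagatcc
Atp5g3: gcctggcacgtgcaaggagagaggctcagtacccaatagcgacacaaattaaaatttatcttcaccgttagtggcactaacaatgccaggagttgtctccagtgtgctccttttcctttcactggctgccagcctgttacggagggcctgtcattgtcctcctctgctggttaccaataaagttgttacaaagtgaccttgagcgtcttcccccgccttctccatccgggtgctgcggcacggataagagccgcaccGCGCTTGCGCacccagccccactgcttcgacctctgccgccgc
Ndufb7: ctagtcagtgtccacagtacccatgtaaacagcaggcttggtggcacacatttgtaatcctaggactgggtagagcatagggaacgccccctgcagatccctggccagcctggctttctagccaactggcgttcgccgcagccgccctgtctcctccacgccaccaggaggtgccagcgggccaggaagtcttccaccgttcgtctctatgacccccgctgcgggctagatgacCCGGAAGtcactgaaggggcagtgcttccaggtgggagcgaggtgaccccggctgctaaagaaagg
Atp5j2: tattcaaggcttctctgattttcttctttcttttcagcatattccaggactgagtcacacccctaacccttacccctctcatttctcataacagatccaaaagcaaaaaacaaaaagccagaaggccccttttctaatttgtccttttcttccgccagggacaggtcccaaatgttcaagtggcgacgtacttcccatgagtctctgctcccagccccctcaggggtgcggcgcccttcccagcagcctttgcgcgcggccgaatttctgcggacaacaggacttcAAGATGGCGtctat

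The libraries held 19805815 to 40400676 counts, and the members took 0.890 to 1.21% of them. Levels are CPM, the counts scaled to library size with TMM factors, as mean ± SD of 3 libraries, and log2 changes are ± SE from edgeR's quasi-likelihood fit with Benjamini-Hochberg adjusted p-values over all genes tested. Markers of forebrain were 306.7 to 462.4 CPM in sum in sham LN and 11.2 to 11.9 CPM in sham PN, and hindbrain markers were 2.11 to 3.06 CPM in sham LN and 103 to 135 CPM in sham PN, so markers of brain region separate the sham groups. In the stroke libraries, forebrain markers summed to 156.9 to 361.3 CPM in MCAO and 5.535 to 7.251 CPM in PI. Against their shams 0 of 6 were called in either. Hindbrain markers summed to 3.8 to 21.96 CPM in MCAO, with 2 of 5 higher than in sham LN. In PI they summed to 41.61 to 82.33 CPM, with 1 of 5 lower than in sham PN. The part of region in the stroke comparisons was not tested. In bulk tissue, fewer cells of a type and less RNA per cell cannot be told apart.

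After MCAO most members stayed close to their sham level, and 2 of 81 passed the test, both lower. These were Uqcr11, a small subunit of complex III, and Ndufs3, a core subunit of the arm of complex I that reaches into the matrix. The share of members called was 2.47%, against 18.6% of all genes tested in this comparison. Lower calls made up 2.47% of members and 6.07% of all genes, and higher calls 0% of members and 12.5% of all genes. The median log2 change was -0.07 over the members and 0.00 over all genes (-0.00176), and 58 of 81 members (71.6%) were below 0, against 50.2% of all genes. The median size of the change, without sign, was 0.14 for members and 0.43 for all genes. Among genes with a mean of at least 500 counts it was 0.09 for 69 members and 0.31 for 8192 genes, and 76.8% and 53.7% of them were below 0, with signed medians of -0.08 and -0.04. Of those 69, 67 had a 95% interval that lies within a 2-fold change (97.1%, against 70.4% of the 8192 genes). The CPM of MCAO and sham LN libraries did not overlap for 21 members, 3 higher and 18 lower, or 25.9% of members, against 39.1% of all genes. The 3 higher ones were 3.7% of members, against 20.4% of all genes, and the 18 lower ones 22.2%, against 18.7%.

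**Figure D1:**
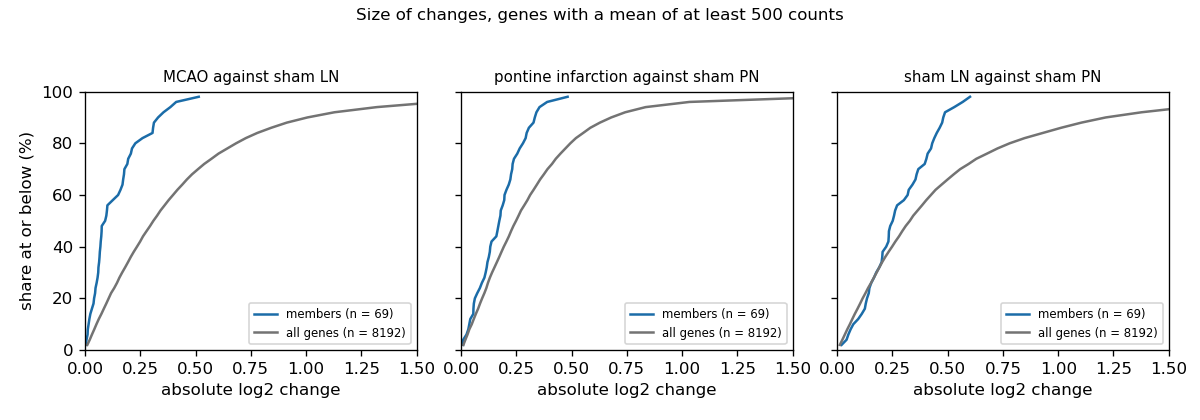
Cumulative share of genes (vertical axis, percent) by the absolute log2 change (horizontal axis) for the members and for all genes with a mean of at least 500 counts, in 3 comparisons. The members' curve lies left of that of all genes after MCAO, where the medians are 0.09 and 0.31, and nearer to it between the sham groups.

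Uqcr11 had 71.6, 96.4 and 71.2 CPM in the 3 MCAO libraries (replicate 1, replicate 2, unnumbered), against 200, 174 and 165 CPM in sham LN replicates 1 to 3. The groups do not overlap, and each MCAO library was lower than the lowest sham library (log2 change -1.17 ± 0.18, edgeR adjusted p = 0.00262). Sham LN was the high group of the 4: PI libraries had 65.0, 59.6 and 80.0 CPM and sham PN libraries 83.3, 95.2 and 117 CPM. Leaving out any 1 of the 6 libraries gave log2 changes of -1.43 to -1.09 with edgeR adjusted p from 0.000272 to 0.0194. Next to it on GRCr8 lie Mbd3 (log2 change -0.10 ± 0.15, edgeR adjusted p = 0.658) and Tcf3 (0.15 ± 0.18, edgeR adjusted p = 0.583), and neither passed. RefSeq lists 1 further gene or pseudogene that carries the Uqcr11 name, and how the authors' counting treated reads shared with it is not given in the sources used here.

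Ndufs3 had 56.2, 90.4 and 64.5 CPM in MCAO libraries, against 113, 98.4 and 96.4 CPM in sham LN. The groups do not overlap, although MCAO replicate 2 came close to the lowest sham library (log2 change -0.54 ± 0.17, edgeR adjusted p = 0.0466). The call was lost without MCAO replicate 1 (edgeR adjusted p = 0.096), the unnumbered MCAO library (0.146) or any of the sham LN libraries 1, 2 and 3 (0.151, 0.0915 and 0.0894), and in a fit of the 6 compared libraries alone (0.118). It was kept by DESeq2 (adjusted p = 0.0125) and limma voom (adjusted p = 0.042). In edgeR it was kept with DESeq2 size factors (adjusted p = 0.0365) and with no filter on low counts (adjusted p = 0.0294). Kbtbd4, which overlaps the end of Ndufs3 on GRCr8, had 32.9, 43.7 and 25.8 CPM in MCAO and 59.0, 46.5 and 49.4 CPM in sham LN (log2 change -0.60 ± 0.19, edgeR adjusted p = 0.0501). The strandedness of the counting is not given in the sources used here, so reads of this pair may not have been kept apart.

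The number of members that pass after MCAO depends on the libraries that enter. Without MCAO replicate 2, 15 of 81 members were lower and 0 higher. All genes called then numbered 6170 (2873 higher and 3297 lower), against 3163 with it (2131 higher and 1032 lower). Lower calls thus rose among all genes as well. The share of 15 in 81 members is close to that of 3297 in the 17008 genes of the full fit. The 15 are 11 of complex I (Ndufa4, Ndufa4l2, Ndufa5, Ndufa6, Ndufa8, Ndufb4, Ndufb8, Ndufs3, Ndufs4, Ndufs7, Ndufs8), Sdha of complex II, Uqcr11, Cox8a and Atp5sl. DESeq2 on all libraries called 10 members, 9 lower and 1 higher, and the higher was Cox7a2l2. Of all genes it called 4584, 2532 higher and 2052 lower. Its lower calls were a similar share of the members and of all genes, and its higher calls a smaller share of the members. MCAO replicate 2 had the highest median of the MCAO libraries in each complex. It had a median log2 difference from the sham LN mean of -0.05 over complex I members, while replicate 1 stood at -0.17 and the unnumbered library at -0.19. Summed neuronal markers were 4437 to 7484 CPM in MCAO and 6669 to 8930 CPM in sham LN, with Syn1 listed at 0 throughout, and of 14 tested 1 was called higher and 0 lower. Oligodendrocyte markers were 7364 to 11500 CPM in MCAO and 14910 to 21210 CPM in sham LN, and 4 of 7 tested were lower. Microglia and macrophage markers were 606.6 to 2394 CPM in MCAO and 270.6 to 325 CPM in sham LN, and of 12 tested 6 were higher and 1 lower. Astrocyte markers summed to 4818 to 6138 CPM in MCAO and 3219 to 3605 CPM in sham LN, although 4 of 8 were lower and 1 higher, and neutrophil markers to 81.6 to 815.3 CPM in MCAO and 6.62 to 7.82 CPM in sham LN, with 6 of 6 higher. Their part in the members' levels was not tested.

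In complex I, which takes electrons from NADH, 27 of 36 members were below 0 after MCAO, with a median log2 change of -0.12. Ndufv1, the subunit that binds NADH, had 171, 201 and 207 CPM in MCAO and 232, 226 and 212 CPM in sham LN. The groups do not overlap, yet no call was made (log2 change -0.21 ± 0.14, edgeR adjusted p = 0.288). Ndufs1 (-0.21 ± 0.15), a core iron-sulphur subunit, did not pass. Ndufs4, an accessory subunit whose loss causes Leigh syndrome in people, had 51.4, 61.2 and 55.7 CPM in MCAO and 73.4, 69.1 and 72.7 CPM in sham LN (log2 change -0.35 ± 0.12, edgeR adjusted p = 0.0642). Ndufa12 (-1.48 ± 0.51, edgeR adjusted p = 0.0623) had the lowest log2 change of the complex. It was 3.08, 3.26 and 2.42 CPM in MCAO and 3.82, 17.1 and 3.60 CPM in sham LN, so sham LN replicate 2 alone stood far above the rest. Ndufa13 (0.25 ± 0.43) had the highest log2 change, at 0.64 to 1.26 CPM in MCAO and 0.59 to 1.03 CPM in sham LN.

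Ndufa4, now assigned to complex IV although named for complex I, had 99.6, 149 and 112 CPM in MCAO and 161, 131 and 154 CPM in sham LN (log2 change -0.31 ± 0.15, edgeR adjusted p = 0.174). Its paralogue Ndufa4l2, known as a hypoxia-inducible gene, had 1.06, 2.57 and 0.822 CPM in MCAO and 4.74, 2.96 and 2.37 CPM in sham LN. MCAO replicate 2 overlaps the sham range, and no call was made (log2 change -1.18 ± 0.49, edgeR adjusted p = 0.11). On GRCr8 Ndufa4l2 overlaps Shmt2, a mitochondrial serine enzyme, which rose after MCAO (log2 change 0.83 ± 0.19, edgeR adjusted p = 0.0154).

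Complex II, succinate dehydrogenase, also serves the tricarboxylic acid cycle. Sdha, its flavin subunit, had 227, 306 and 269 CPM in MCAO and 322, 345 and 324 CPM in sham LN, without overlap (log2 change -0.31 ± 0.13, edgeR adjusted p = 0.121). Sdhb, the iron-sulphur subunit (-0.02 ± 0.13), and the membrane anchors Sdhc (-0.06 ± 0.13) and Sdhd (-0.20 ± 0.13) did not pass. In complex III the core proteins Uqcrc1 (0.10 ± 0.14) and Uqcrc2 (-0.06 ± 0.14) and the Rieske iron-sulphur protein Uqcrfs1 (0.05 ± 0.12) lay near 0, each with a 95% interval within a 2-fold change. Of the 9 members of complex III, Uqcr11 was the only one called after MCAO.

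In complex IV, cytochrome c oxidase, 0 of 14 members passed. Cox8a, the ubiquitous form of a small subunit, had 161, 216 and 176 CPM in MCAO and 284, 240 and 237 CPM in sham LN. The groups do not overlap and the adjusted p was just above the threshold (log2 change -0.46 ± 0.15, edgeR adjusted p = 0.0521). It was called by DESeq2 (adjusted p = 0.0127), with DESeq2 size factors in edgeR (adjusted p = 0.0399) and with no filter on low counts (adjusted p = 0.0368). It was not called by limma voom, on the compared libraries alone or with the replicate number as a block. Leaving out 1 library gave edgeR adjusted p from 0.00574 to 0.176. Cox4i1, the common form of subunit 4, had 405, 496 and 455 CPM in MCAO and 568, 512 and 499 CPM in sham LN, without overlap (log2 change -0.22 ± 0.13, edgeR adjusted p = 0.248). Its paralogue Cox4i2, known as the form of lung and low oxygen, had 11.5, 1.92 and 1.45 CPM in MCAO and 2.71, 1.74 and 3.25 CPM in sham LN, so MCAO replicate 1 stood alone (log2 change 0.94 ± 0.65, edgeR adjusted p = 0.315). Without that library the log2 change of Cox4i2 was -0.69.

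Cox5a, a subunit on the matrix side, had 175, 152 and 187 CPM in MCAO and 143, 138 and 133 CPM in sham LN. All 3 MCAO libraries were higher, but no call was made (log2 change 0.31 ± 0.13, edgeR adjusted p = 0.117). Cox5b was at -0.01 ± 0.12. Cox7a2l2, a gene of low level named after Cox7a2l, had 6.78, 6.96 and 6.68 CPM in MCAO and 2.29, 2.26 and 2.18 CPM in sham LN. The ranges are far apart and the test fell short (log2 change 1.60 ± 0.56, edgeR adjusted p = 0.0666), while limma voom (adjusted p = 0.047), DESeq2 (adjusted p = 0.0238) and the fit on compared libraries (edgeR adjusted p = 0.0158) called it. In the other groups it varied from 6.53 to 9.77 CPM in PI and from 0.907 to 7.09 CPM in sham PN. The muscle and heart form Cox6a2 had 4.04 to 6.09 CPM in MCAO and 2.45 to 4.45 CPM in sham LN (log2 change 0.73 ± 0.35, edgeR adjusted p = 0.166), against -0.17 ± 0.14 for the common form Cox6a1. Cox6b1 (0.16 ± 0.19), Cox6b2 (-0.96 ± 0.70), Cox7a2 (-0.19 ± 0.17) and Cox7a2l (-0.10 ± 0.12) did not pass.

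In complex V, the ATP synthase, 0 of 18 members passed after MCAO, and 11 were below 0. Atp5b, the catalytic beta subunit, had 1284, 1545 and 1631 CPM in MCAO and 1555, 1532 and 1471 CPM in sham LN, and the ranges overlap (log2 change -0.03 ± 0.15, 95% interval -0.36 to 0.30). Atp5a1, the alpha subunit (-0.10 ± 0.16), Atp5c1, the gamma subunit of the stalk (-0.05 ± 0.11), and the genes of the membrane ring Atp5g1 (-0.06 ± 0.13), Atp5g2 (-0.09 ± 0.18) and Atp5g3 (0.07 ± 0.13) did not pass. Atp5f1 was the highest of the complex at 0.93 ± 0.35 (edgeR adjusted p = 0.0854) and Atp5s the lowest at -0.26 ± 0.19.

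**Figure D2:**
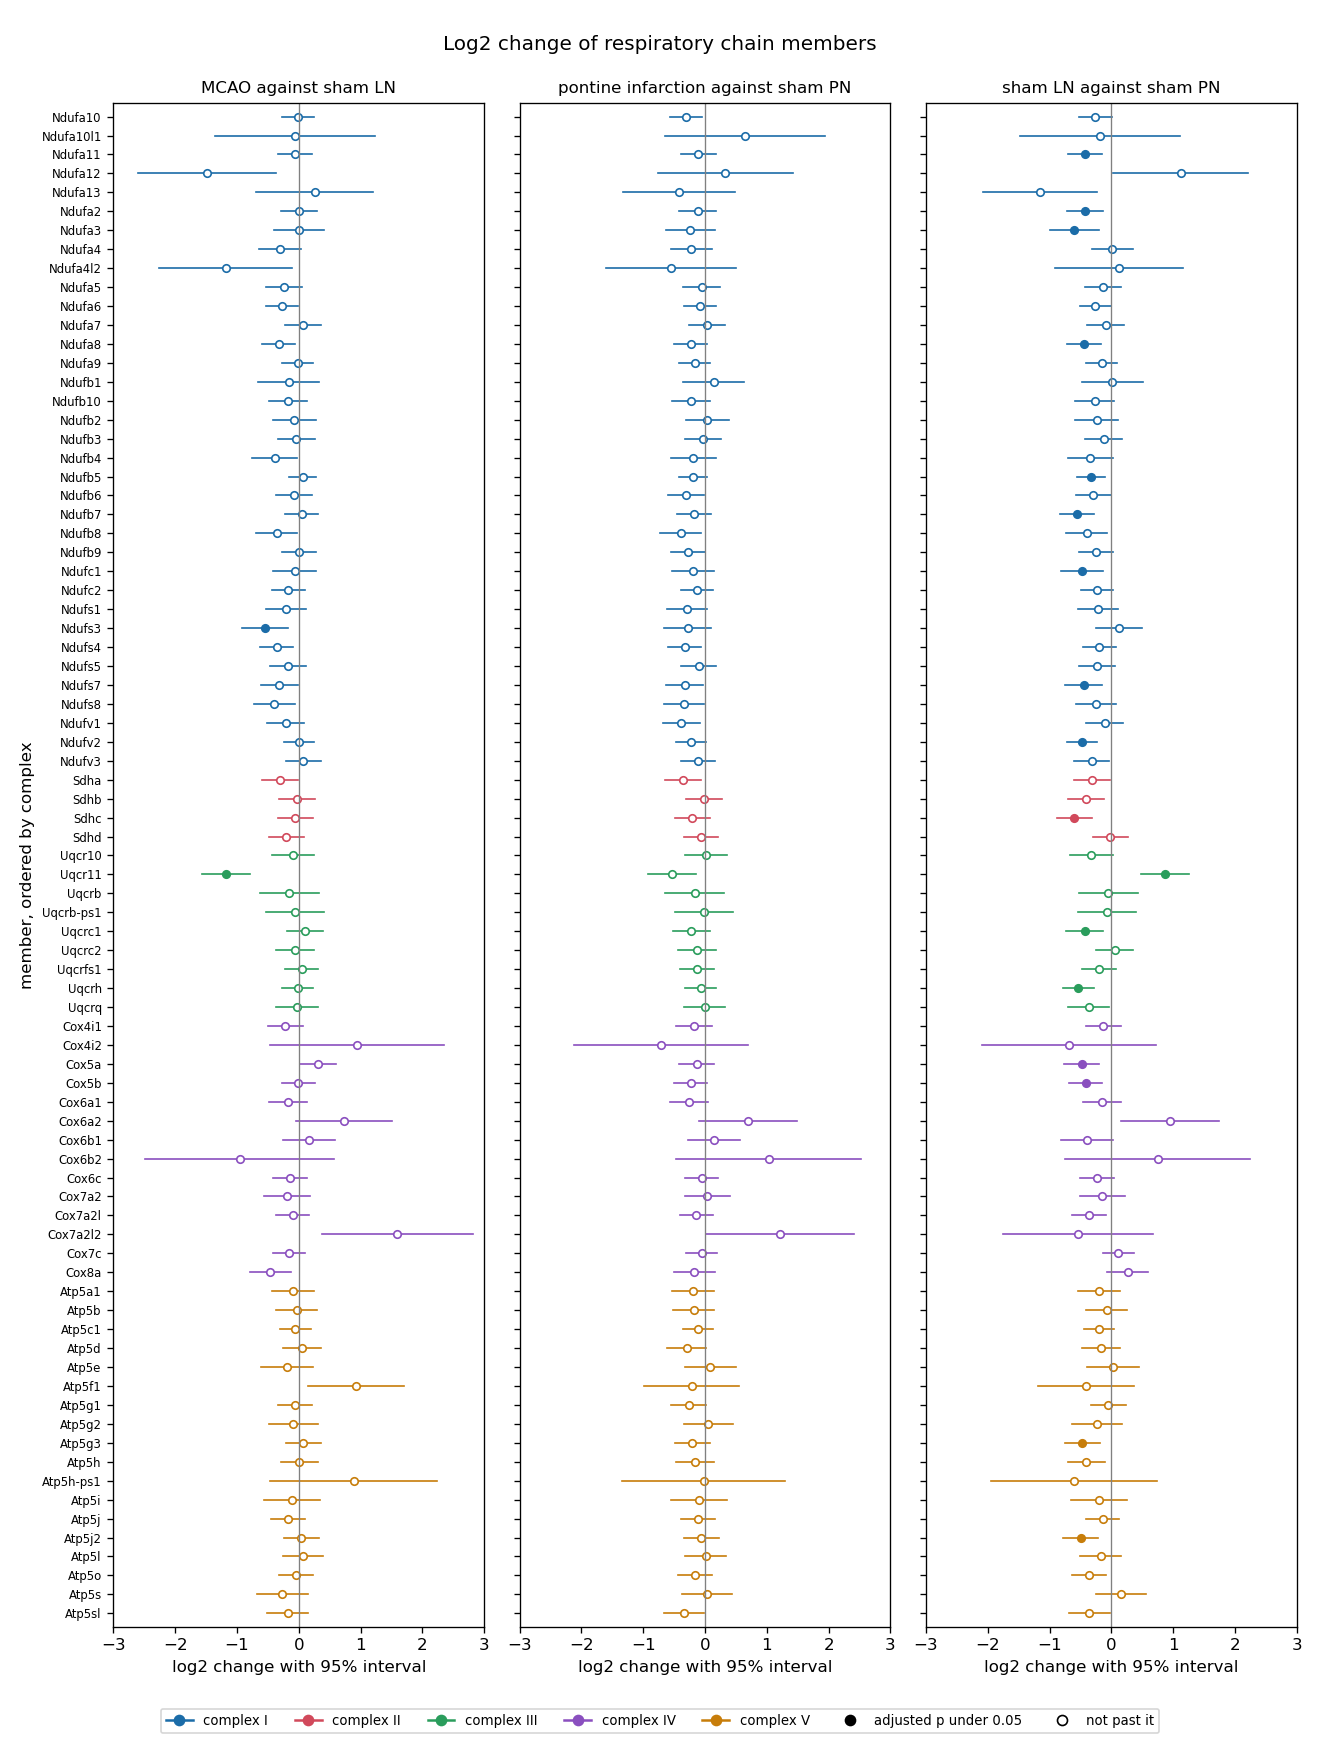
Log2 change with its 95% interval (horizontal axes) for the members reported by name (rows, coloured by complex) in 3 comparisons. Filled points have an edgeR adjusted p under 0.05: 2 after MCAO, 0 after PI and, drawn here, 17 between the sham groups.

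After pontine infarction 0 of 81 members passed edgeR's test, against 4.08% of all genes tested (3.21% higher and 0.87% lower). DESeq2 and limma voom also called 0 members. Before adjustment 12 members (14.8%) had an edgeR p under 0.05, against 21.6% of all genes. A log2 change under 0 was seen for 66 of 81 members (81.5%), against 58% of all genes, and the median was -0.16 over members and -0.08 over all genes. Among genes with a mean of at least 500 counts the medians lay closer, at -0.17 for members and -0.14 for all, with 88.4% and 68.4% below 0. Groups did not overlap for 22 members, 1 higher and 21 lower (27.2%, against 32% of all genes). Lower members without overlap made up 25.9%, against 18.7% of all genes. Of the 69 members with a mean of at least 500 counts, 68 had a 95% interval within a 2-fold change (98.6%, against 77.8% of the 8192 genes).

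By complex, the PI medians were -0.21 for complex I, -0.13 for complex II, -0.13 for complex III, -0.10 for complex IV (0.0005 with no filter on low counts) and -0.14 for complex V. Summed complex I levels were 2878 ± 117 CPM in PI and 3380 ± 205 CPM in sham PN, and the highest PI library (3012) lay under the lowest sham library (3260.7). Complex II sums were 758 ± 55.5 CPM in PI and 883 ± 37.6 CPM in sham PN, again without overlap (704.52 to 815.41 CPM in PI, 846.23 to 921.26 CPM in sham PN). Complex III sums did not overlap either (927.61 to 1048.7 CPM in PI, 1062.5 to 1179.1 CPM in sham PN), while those of complexes IV and V did. After MCAO the sums of complexes I, II and III likewise lay under sham LN without overlap, and those of complexes IV and V overlapped. Complex I sums there were 2304.4 to 2679.1 CPM in MCAO and 2693.7 to 2960.4 CPM in sham LN. Ndufv1 had 166, 180 and 205 CPM in PI and 209.8, 238 and 274 CPM in sham PN (log2 change -0.39 ± 0.14, edgeR adjusted p = 0.132). Sdha had 299, 354 and 310.3 CPM in PI and 396, 423 and 415 CPM in sham PN (log2 change -0.36 ± 0.13, edgeR adjusted p = 0.146). For both genes each PI library was under each sham library. Uqcr11 was lower in all PI libraries too (log2 change -0.53 ± 0.18, edgeR adjusted p = 0.112). Atp5b, at -0.18 ± 0.15, overlapped between 1253 to 1618 CPM in PI and 1433 to 1773 CPM in sham PN. Neuronal markers summed to 3702 to 5523 CPM in PI and 7002 to 7797 CPM in sham PN, with 0 of 14 called. Oligodendrocyte markers summed to 26640 to 28710 CPM in PI and 41340 to 51750 CPM in sham PN, with 2 of 7 lower, and microglia and macrophage markers to 1027 to 3674 CPM in PI and 398.3 to 434.7 CPM in sham PN, with 8 of 12 higher. Astrocyte markers summed to 7088 to 9402 CPM in PI and 5116 to 5234 CPM in sham PN, with 1 of 8 higher, and neutrophil markers to 26.2 to 229.6 CPM in PI and 3.77 to 5.59 CPM in sham PN, with 3 of 6 higher. Cerebellar markers ranged from 69.5 to 849.3 CPM in PI and from 147.3 to 179 CPM in sham PN, with 0 of 7 called. Leaving out any 1 PI library left 0 members called, but the full fit already called 0, so this cannot decide the part of cerebellar content. The part of these cell type and region markers in the members' levels was not tested.

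**Figure D3:**
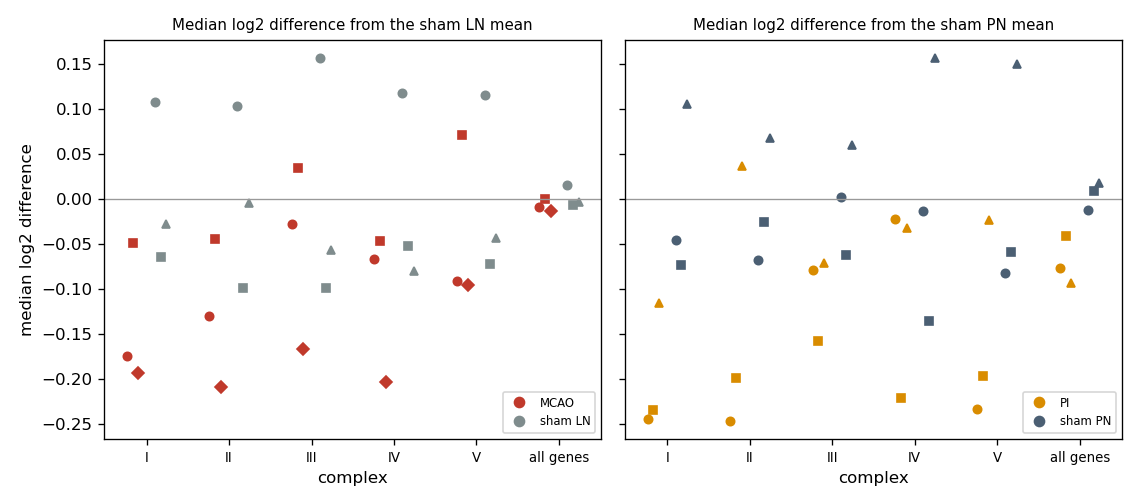
Median log2 difference of each library from the mean of its sham group (vertical axis), over the members of each complex and over all genes tested (horizontal axis), for MCAO with sham LN (left) and PI with sham PN (right). Points are libraries, with circles, squares and triangles for replicates 1, 2 and 3 and diamonds for the unnumbered library. In complex I the 3 PI libraries lie between -0.24 and -0.12, below the 3 sham PN libraries.

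Whether the strokes differed was tested as the MCAO response minus the PI response. Of 81 members 0 passed edgeR's test, as did 0 of all genes tested (0%). Before adjustment 1826 genes (10.7%) and 4 members (4.94%) had an edgeR p under 0.05. DESeq2 called 238 genes and limma voom 0. The 4 members were Uqcr11 (log2 difference -0.64 ± 0.25, 95% interval -1.19 to -0.10), Ndufa12 (-1.81 ± 0.71), Cox5a (0.45 ± 0.19) and Atp5f1 (1.14 ± 0.50), and all had edgeR adjusted p between 0.403 and 0.448. Without MCAO replicate 2 the Uqcr11 difference was -0.995 (edgeR adjusted p = 0.0363). The median difference over members was 0.05, against 0.08 over all genes, and it turned to -0.03 with DESeq2 size factors and to -0.15 with no filter on low counts, where the median of all genes was -0.12. A p that misses the threshold does not show that the responses were alike: for Ndufs3 the 95% interval of the difference ran from -0.79 to 0.27.

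**Figure D4:**
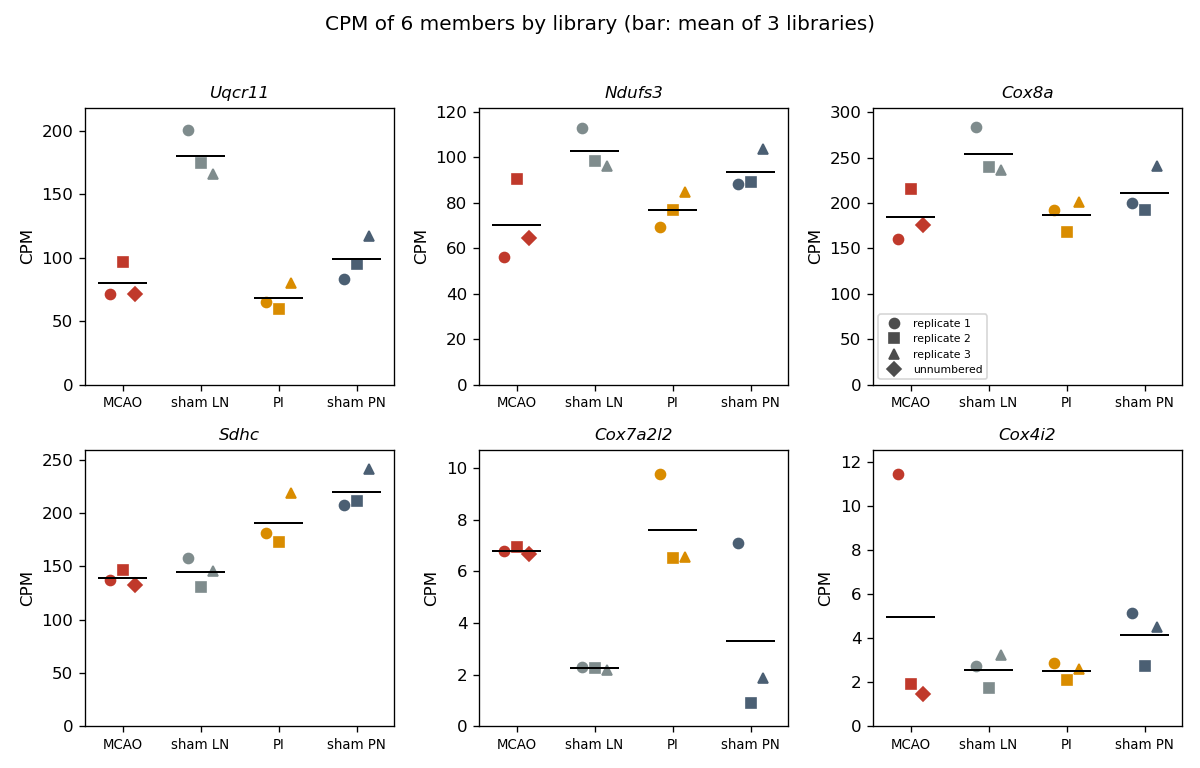
CPM (vertical axis) of Uqcr11, Ndufs3, Cox8a, Sdhc, Cox7a2l2 and Cox4i2 in each of the 12 libraries, by group, with a bar at the mean of 3. Uqcr11 was 165 to 200 CPM in sham LN and 59.6 to 117 CPM in the other 9 libraries, and Cox4i2 reached 11.5 CPM in MCAO replicate 1 alone.

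In sham LN against sham PN, groups that had no stroke, 17 members were lower and 1 was higher, or 22.2% of members, against 21.3% of all genes tested. Lower calls made up 21% of members and 11.3% of all genes, and higher calls 1.23% of members and 10% of all genes. The median log2 change was -0.23 over members, with 68 of 81 (84%) below 0, and -0.11 over all genes, with 57.7% below 0, so the members lay lower than that common shift. Among genes with a mean of at least 500 counts the medians were -0.23 for members, with 89.9% below 0, and -0.04 for all, with 53.4% below 0. With no filter on low counts the medians were -0.12 for members and 0 for all genes. Sham LN is the same group that served MCAO, and sham PN the one that served PI, so these comparisons share libraries. The lower members were 10 of 36 in complex I, 1 of 4 in complex II, 2 of 9 in complex III, 2 of 14 in complex IV and 2 of 18 in complex V, and the groups did not overlap for any of them. Over all members the sham groups did not overlap for 43, 3 higher and 40 lower (53.1%, against 50.9% of all genes). The 40 lower ones were 49.4% of members, against 29.2% of all genes. The count of 18 fell to 5 to 12 when 1 library was left out, to 10 with DESeq2 size factors and to 2 with no filter on low counts, where MCAO against sham LN gave 4. All genes called fell from 3625 to between 2334 and 2662 when 1 library was left out. Members called were 19 with DESeq2, 19 with limma voom and 21 on the compared libraries alone, beside 4512, 3747 and 6365 of all genes.

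Sdhc, a membrane anchor of complex II, had 158, 131 and 146 CPM in sham LN and 207, 211 and 242 CPM in sham PN (log2 change -0.60 ± 0.13, edgeR adjusted p = 0.00653). Ndufb7, an accessory subunit in the membrane arm of complex I whose promoter is printed above, had 60.1, 51.6 and 51.7 CPM in sham LN and 77.3, 75.9 and 87.1 CPM in sham PN (log2 change -0.56 ± 0.12, edgeR adjusted p = 0.00767). For both genes the lowest sham PN library was well above the highest sham LN library. Uqcrh, the hinge protein of complex III that assists cytochrome c1, had 69.5, 60.7 and 65.1 CPM in sham LN and 98.2, 87.5 and 96.9 CPM in sham PN (log2 change -0.53 ± 0.12, edgeR adjusted p = 0.00714). Ndufv2, a core iron-sulphur subunit of complex I, was at 106 ± 4.15 CPM in sham LN and 148 ± 5.74 CPM in sham PN (log2 change -0.48 ± 0.11, edgeR adjusted p = 0.00902). Also lower were Ndufa3 (-0.60), Atp5j2 (-0.49), Ndufc1 (-0.48), Cox5a (-0.48) and Atp5g3 (-0.47), and, with smaller changes, Ndufs7, Ndufa8, Ndufa2, Uqcrc1, Ndufa11, Cox5b and Ndufb5.

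Uqcr11 went against them, at 200, 174 and 165 CPM in sham LN and 83.3, 95.2 and 117 CPM in sham PN (log2 change 0.87 ± 0.18, edgeR adjusted p = 0.00456). Kbtbd4, the neighbour of Ndufs3, was also higher in sham LN (log2 change 0.61 ± 0.19, edgeR adjusted p = 0.0413), while Ndufs3 itself did not pass (0.13 ± 0.17). The core ATP synthase subunits Atp5a1 (-0.20 ± 0.16) and Atp5b (-0.07 ± 0.15), and Cox4i1 (-0.13 ± 0.13), did not pass. Beside the region markers given above, parvalbumin neuron markers summed to 368.2 to 537.2 CPM in sham LN and 1076 to 1262 CPM in sham PN, with 3 of 4 lower, and oligodendrocyte markers to 14910 to 21210 CPM in sham LN and 41340 to 51750 CPM in sham PN, with 6 of 7 lower. Neuronal markers summed to 6669 to 8930 CPM in sham LN and 7002 to 7797 CPM in sham PN, with 2 of 14 higher and 5 lower, and astrocyte markers to 3219 to 3605 CPM in sham LN and 5116 to 5234 CPM in sham PN, with 2 of 8 higher and 4 lower. The part of region and cell makeup in the members' levels was not tested.

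The genes around the chain were read from lists of known factors. Of the 13 subunits encoded in mitochondrial DNA, 0 passed edgeR's test in MCAO, in PI or between the shams. Their summed level was 40147 to 48655 CPM in MCAO and 52467 to 58310 CPM in sham LN, and 37348 to 52166 CPM in PI and 47446 to 50330 CPM in sham PN. The ratio of mitochondrial to nuclear subunit CPM was 4.70, 4.89 and 5.09 in MCAO libraries and 5.01, 5.31 and 5.97 in sham LN libraries. It was 5.38, 3.98 and 3.37 in PI and 4.56, 4.22 and 3.85 in sham PN, so PI replicates ranged on both sides of their sham group. The median log2 change of the 13 was -0.21 after MCAO, -0.20 after PI and 0.22 between the shams, where the nuclear members' median had the opposite sign.

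Of 39 assembly factors tested, 1 rose and 1 fell after MCAO. Ecsit, needed to assemble complex I, was 34.4 ± 2.47 CPM in MCAO and 48.8 ± 1.97 CPM in sham LN (log2 change -0.51 ± 0.14, edgeR adjusted p = 0.0272). RGD1562079, an older name of the complex II factor Sdhaf1, was 1.10 ± 0.0844 CPM in MCAO and 0.150 ± 0.0994 CPM in sham LN (log2 change 2.78 ± 0.53, edgeR adjusted p = 0.00655). Of the 21 electron carriers and biogenesis regulators 0 passed in any comparison. Ppargc1a, a coactivator of mitochondrial biogenesis, was 53.5 ± 15.1 CPM in MCAO and 44.0 ± 3.85 CPM in sham LN (log2 change 0.28 ± 0.27, edgeR adjusted p = 0.475), and 29.9 ± 11.2 CPM in PI and 47.3 ± 6.80 CPM in sham PN (log2 change -0.66 ± 0.27, edgeR adjusted p = 0.18). Of 20 import and outer membrane genes tested, Hspd1 and Hspe1, the partners of the matrix chaperonin, rose after MCAO. Hspd1 was 204 ± 31.6 CPM in MCAO and 133 ± 7.72 CPM in sham LN (log2 change 0.62 ± 0.19, edgeR adjusted p = 0.0446), and Hspe1 was 34.7 ± 2.52 CPM in MCAO and 22.8 ± 2.86 CPM in sham LN (log2 change 0.60 ± 0.19, edgeR adjusted p = 0.0442). Of 14 tricarboxylic acid cycle enzymes tested, 0 passed after either stroke.

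Between the shams, Fh and Suclg2 of the tricarboxylic acid cycle were lower in sham LN (log2 change -0.52 ± 0.15 and -0.40 ± 0.13). Of the assembly factors, Ttc19 (1.02 ± 0.24) and Cox15 (0.64 ± 0.21) were higher and Ndufaf2 (-0.96 ± 0.26), Uqcc1 (-0.51 ± 0.11) and Ndufaf5 (-0.42 ± 0.14) lower in sham LN. Among import genes, Tomm70a, an import receptor of the outer membrane, was 151 ± 29.1 CPM in sham LN and 51.5 ± 8.25 CPM in sham PN (log2 change 1.55 ± 0.22, edgeR adjusted p = 0.000595), and Vdac2 was lower (-0.45 ± 0.12).

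The 14 named rows under the count minimum were 8 protein-coding genes, 5 pseudogenes and Ndufa7l, which RefSeq does not match. Cox8b and Cox8c, other forms of subunit 8, and Cox7b2 were among them, as was Ndufs6. The other coding rows were Ndufb4l1 and the X-linked genes Ndufa1, Ndufb11 and Cox7b, all listed at 0 in all libraries. On the X chromosome 591 of 606 protein-coding symbols in the table were at 0 in all libraries (97.5%), against 1052 of 16016 on numbered autosomes (6.57%), so an entry at 0 there says nothing of the gene. RefSeq lists a further gene or pseudogene carrying the name of 40 of the 81 members, and their counts are uncertain where reads fit both.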

How the data were processed

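Total RNA with an RNA integrity number above 8, per the labels' protocols, was sequenced from 12 rat brain libraries. The deposited values are raw gene counts of the authors, 37209 symbols by 12 libraries. The submitters' processing notes name HISAT2 and Rnor_6.0. How counts were assigned (program, annotation, strand) is not given in the sources used here. Groups came from the labels, and 11 column codes match a sample title.

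Counts were fitted in R 4.3.3 with edgeR 4.0.16 (TMM, filterByExpr with minimum count 10 and total 15, quasi-likelihood test over all 12 libraries, two-sided), which tested 17008 genes. The common coefficient of variation was 0.302. Standard errors are the size of the log2 change divided by the root of F. Log2 values of single libraries used a prior count of 2. Alternatives tried were DESeq2 1.42.0, limma voom (limma 3.58.1), DESeq2 size factors within edgeR, no low-count filter, a replicate block, fits of the compared libraries only, and omission of each library. The fit was tested on simulated counts. Gene names, chromosomes, neighbours and overlaps came from RefSeq GRCr8, a newer assembly than that of the counts, and promoters from the first listed start.

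Members and lists were chosen with earlier results of these data known. Named members were the 10 largest changes in each direction among those past the threshold without overlap, the highest and lowest of each complex, and fixed core subunits and paralogue pairs. Up to 4 members past the threshold came from each related list. Other members named beyond that were chosen after their values were seen. A member and a marker gene are counted but not reported by name here.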

Additional observations from a re-analysis of the deposited data

How the results depend on the processing

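The counts of calls depend on the processing, and where they moved the cause was not tested. Of 81 members, MCAO against sham LN called 2 as reported, 4 with DESeq2 size factors, 4 with no filter, 10 with DESeq2 and 1 with the replicate block. In the same order it called 3163, 3243, 3268, 4584 and 1389 of all genes. Sham LN against sham PN called 18 members, then 10 with DESeq2 size factors and 2 with no filter, and 3625, 3591 and 3272 of all genes. Members called there were 19 with DESeq2, 19 with limma voom and 21 on the compared libraries alone. Of all genes, the response difference called 0, then 1 with no filter and 238 with DESeq2. Pontine infarction called 694, then 1738 with DESeq2 and 315 with limma voom. On the compared libraries alone MCAO called 1354 in place of 3163, and the shams 6365 in place of 3625. Leaving out 1 library gave 1 to 15 members for MCAO, 0 to 1 for PI (Cox7a2l2 without sham PN replicate 1), 0 to 1 for the difference and 5 to 12 for the shams. It gave 1136 to 6170 genes for MCAO, 6 to 965 for PI (6 without sham PN replicate 3), 0 to 970 for the difference and 2334 to 2662 for the shams. The median of complex III after MCAO turned to 0.03 and that of complex V to 0.0020 without sham LN replicate 1. The median of complex IV after PI turned to 0.0005 with no filter. No result among the named members reversed a call.

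With the replicate number as a block (11 numbered libraries), MCAO called 1389 genes and 1 member, Ndufs3 being lost (adjusted p = 0.167), and the shams 16, with Cox5b (adjusted p = 0.0552), Ndufb5 and Ndufs7 lost and Atp5h gained. Deviations of same-numbered libraries correlated at 0.104 and 0.0426 for MCAO and sham LN, at 0.0483, 0.15 and 0.154 for PI and sham PN, and at 0.153, 0.0804 and 0.0435 for the shams. Differently numbered libraries were not correlated as a reference, so these values cannot decide whether the numbers pair the samples. The main fit holds no block because no label says that a number marks a shared litter or batch.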

Other observations

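Ndufa10l1, a gene named after the complex I subunit Ndufa10, fell into separate ranges that crossed the groups. It had 8.28, 11.8 and 26.2 CPM in the MCAO libraries (replicate 1, replicate 2, unnumbered), and 26.7, 46.2 and 12.0 CPM in PI replicates 1 to 3. It had 27.5, 10.6 and 9.98 CPM in sham LN and 29.8, 11.6 and 13.2 CPM in sham PN. Each group thus holds libraries of both ranges, and no comparison passed the test. Cox7a2l2 had a similar split in sham PN alone, at 7.09 CPM in replicate 1 and 0.907 and 1.87 CPM in replicates 2 and 3.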
